A study of Mus musculus with 4 samples.

Results

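The subject is 10 genes of the contractile apparatus shared by myofibroblasts, myoepithelium and smooth muscle: Acta2, Actg2, Tagln, Cnn1, Myh11, Tpm1, Tpm2, Myl9, Mylk and Cald1. They were chosen by name, each matched 1 row among the 54532 genes of the count files, and all 10 were among the 15961 genes that passed the filter on low counts. The RNA came from cells labelled as cancer-associated fibroblasts (CAFs) of mouse mammary tumours on the C57BL/6 strain. Both groups carry MMTV-PyMT, a transgene in which a mouse mammary tumour virus promoter drives the polyoma middle T oncogene in mammary epithelium, and both are labelled Dll1 mcherry+. The unirradiated group received no radiation and the irradiated group received a targeted dose of 6 Gy, and each held 2 libraries, named A and B. All 4 library titles carry day 6, the treatment label places the radiation at day 6, and the time from radiation to collection and the age of the mice are not given in the labels. Tumours were digested with enzymes and treated with an antibody to PDGFRa, but the labels do not say which cells were sequenced.

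Total counts lay between 13011489 and 23763830 per library, so that 1 count was worth between 0.0404 and 0.0809 CPM, the depth-scaled count used as the level of a gene (TMM scaling). Each mean ± SD is over the 2 libraries of a group (n = 2). Nothing in the labels states that A and B are separate animals, so the p-values rest on a spread between libraries that may be technical. The fibroblast label was checked against markers. Luminal and tumour epithelial markers (10 genes, among them Epcam and Krt8) summed to between 8928 and 8940 CPM in the unirradiated and between 8246 and 8574 CPM in the irradiated libraries. The 12 fibroblast markers summed to between 620 and 660 CPM and between 1962 and 1993 CPM, so epithelial transcripts were abundant in libraries labelled as fibroblasts. In such bulk samples, fewer cells of a type and less RNA per cell cannot be told apart.

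In smooth muscle and in myofibroblasts, filaments of actin and myosin II slide past each other to pull on the cell's attachments. A rise in calcium activates the light chain kinase, which phosphorylates the regulatory light chain and switches the myosin motor on, while tropomyosin, calponin and caldesmon lie along the actin filament and tune the motor's access to it. Alpha smooth muscle actin, the product of Acta2, is the usual marker of the myofibroblast, and in the mammary gland the same genes are also used by the myoepithelial cells that squeeze the alveoli and by the muscle cells and pericytes of vessels. Many of these genes carry a CArG box near their start, the site bound by serum response factor (SRF).

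Promoter sequences are shown for the 2 genes in which a box of this kind was found, since SRF is among the regulators described further on. RefSeq promoters (GRCm38.p6) were matched for 7 of the 10 genes, with 8 start sites because Cald1 has a pair of them. Actg2, Tagln and Myh11 were not matched. The 250 bases before each start were searched for the CArG box, which is CC, a core of 6 bases that are each A or T, then GG, and for a CArG-like box in which at least 5 of the 6 core bases are A or T. Both forms read the same on either strand, and every CArG box also counts as CArG-like. The capitals mark the boxes, and each stretch is printed 5′ to 3′ on the gene's own strand.
Acta2, chr19:34255378-34255477, minus strand: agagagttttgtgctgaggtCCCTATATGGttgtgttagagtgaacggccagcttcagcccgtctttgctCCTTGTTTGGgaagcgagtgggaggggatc
Myl9, chr2:156775283-156775394, plus strand: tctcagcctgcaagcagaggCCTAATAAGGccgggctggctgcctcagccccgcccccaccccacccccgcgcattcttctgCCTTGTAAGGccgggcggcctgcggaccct
The Acta2 boxes, both CArG-like, begin 84 and 34 bases before the start. Myl9 has a CArG box, CCTAATAAGG, that begins 161 bases before the start, and a CArG-like box that begins 99 bases before it. A CArG box stood in 1 of the 8 promoters, against 1.47% of all 32851 RefSeq promoters searched over the same length, and a CArG-like box in 2 of 8, against 8.59%. These matches describe letters in a window and do not show binding.

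The comparison asked how these genes differed between the libraries of irradiated and unirradiated tumours. Of the 10 genes, 8 rose in the irradiated libraries, 0 fell and 2, Tagln and Cald1, did not pass the threshold of an adjusted p of 0.05 (edgeR quasi-likelihood test with Benjamini-Hochberg adjustment over all tested genes). Among all tested genes 33.9% were higher, 32.5% lower and 66.4% one or the other by the same rule. The median log2 fold change of the 10 genes was 1.20, against -0.0042 for all tested genes. Tested against a change of 1.5-fold, 7 of the 10 were higher, against 12.7% of all tested genes (11.0% were lower and 23.7% either), and Tpm1 was the one that no longer passed. The log2 fold change exceeded 1 for 6 genes, against 11.0% of all tested genes, and exceeded 2 for 3 genes, Tpm2, Actg2 and Acta2, against 3.92%. Both irradiated libraries lay above both unirradiated ones for 9 of the 10, against 41.5% of all tested genes (40.9% had both below), and Tagln was the exception.

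**Figure D1:**
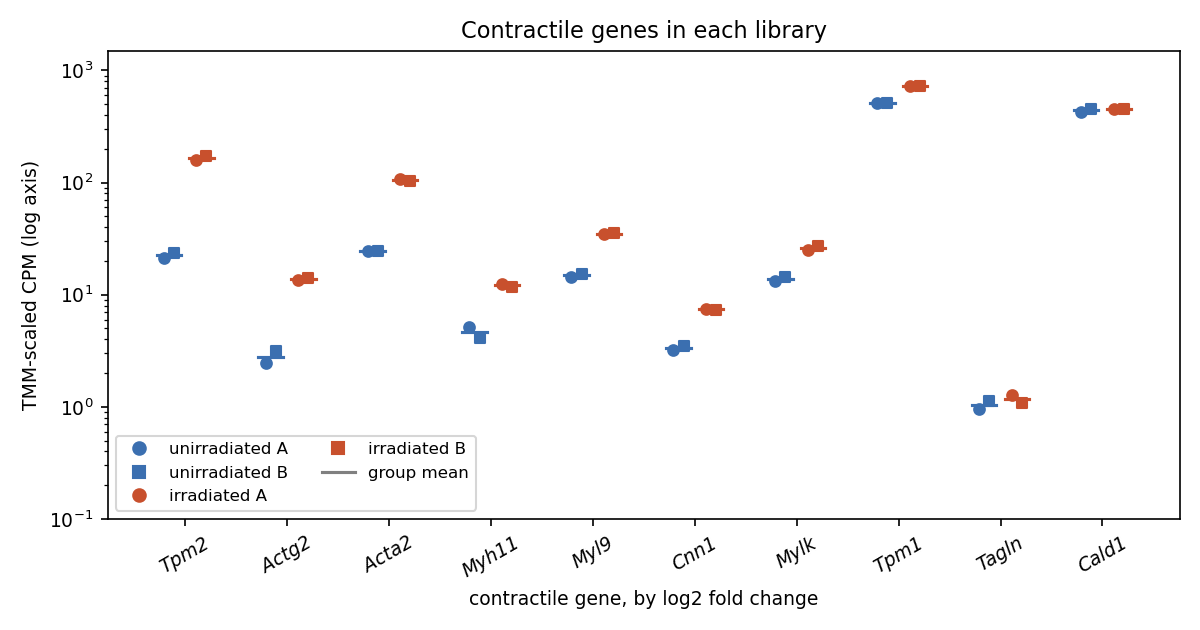
Level of each contractile gene in each library (TMM-scaled CPM on a log axis, circles for A and squares for B, short lines for group means), ordered by log2 fold change. The irradiated points lie above the unirradiated ones by the widest margin for Tpm2, from 22.5 to 165 CPM, while Tagln stays between 0.954 and 1.26 CPM in all 4 libraries.

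Both smooth muscle actins rose, by 4.30-fold and 5.02-fold. Acta2, encoding alpha smooth muscle actin (mm10 chromosome 19, 34241090 to 34255336), was at 24.3 and 24.4 CPM in the unirradiated and 108 and 103 CPM in the irradiated libraries (A before B here and throughout). The irradiated libraries were both far above the unirradiated ones, with no overlap (log2 fold change 2.11, SE 0.0729, adjusted p = 1.19e-35). Actg2, encoding the gamma actin of enteric smooth muscle (chromosome 6, 83512905 to 83536265), was at 2.45 and 3.16 CPM in the unirradiated and 13.5 and 14.1 CPM in the irradiated libraries. The groups did not overlap (log2 fold change 2.33, SE 0.192, adjusted p = 6.57e-17). Per length, in RPKM (the scaled CPM divided by gene length in kilobases), Acta2 stood at 7.73 ± 1.36 times the level of Actg2 in the unirradiated and 6.68 ± 0.445 times in the irradiated libraries, and the single values of this ratio overlapped between the groups.

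The cytoplasmic actins, which every cell type uses, changed less. Actb was at 2601 ± 44.2 and 3441 ± 134 CPM (log2 fold change 0.40) and Actg1 at 2095 ± 8.31 and 2797 ± 67.4 CPM (0.42), and both passed the test of any change but not that of a 1.5-fold change. Acta1, the skeletal muscle actin, was at 3.61 ± 0.384 and 3.42 ± 0.755 CPM and did not pass (log2 fold change -0.02, adjusted p = 0.944). Actc1, the cardiac actin, was below 1 CPM in every library, with 9 and 1 counts in the unirradiated and 11 and 18 in the irradiated libraries. It passed the filter on low counts only through the irradiated libraries and was not called (log2 fold change 1.01, adjusted p = 0.152 by edgeR). Without unirradiated A the log2 fold change was 3.01, a value that rests on 1 count in unirradiated B. The share of Acta2 in the summed RPKM of the 6 actins went from 0.771 ± 0.0077% to 2.45 ± 0.162%, and that of Actg2 from 0.101 ± 0.0189% to 0.368 ± 0.00022%. Smooth muscle isoforms thus remained a small part of the actin transcripts in both groups.

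Among tropomyosins, coiled-coil proteins that run along the groove of the actin filament, the largest change was in Tpm2. This beta tropomyosin gene (chromosome 4, 43514711 to 43523765) was at 21.2 and 23.8 CPM in the unirradiated and 158 and 172 CPM in the irradiated libraries. It had the largest fold change of the 10 genes, 7.39 (log2 fold change 2.89, SE 0.0711, adjusted p = 7.34e-44), and 1.79% of tested genes had a larger one. Tpm1, encoding alpha tropomyosin (chromosome 9, 67022590 to 67049406), was at 510.4 and 509.9 CPM in the unirradiated and 728 and 730.3 CPM in the irradiated libraries. Its libraries agreed closely within each group and the rise was 1.43-fold (log2 fold change 0.52, SE 0.0392, adjusted p = 2.14e-18).

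Of the other tropomyosins, Tpm3 rose from 311 ± 13.7 to 369 ± 5.08 CPM (log2 fold change 0.25). Tpm4 was at 462 ± 13.97 and 493 ± 6.31 CPM (0.09, adjusted p = 0.0416), a call that was lost with DESeq2, with upper-quartile scaling, with the stricter filter and without either unirradiated library. Per length, Tpm2 went from 2.23 ± 0.205% to 12.5 ± 0.716% of the summed tropomyosin RPKM while Tpm4 went from 60.4 ± 1.22% to 49.4 ± 0.815%. The ratio of Tpm1 to Tpm2 RPKM fell from 10.2 ± 0.846 to 1.99 ± 0.117. GENCODE M21 lists 16 protein-coding transcripts of Tpm1 and 4 of Tpm2, some with muscle exons and some without, and counts per gene do not separate them.

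Genes of smooth muscle myosin II and of its light chain kinase rose by between 1.92-fold (Mylk) and 2.56-fold (Myh11). Myh11, the smooth muscle myosin heavy chain (chromosome 16, 14194535 to 14291372), was at 5.13 and 4.13 CPM in the unirradiated and 12.4 and 11.8 CPM in the irradiated libraries (log2 fold change 1.36, SE 0.174, adjusted p = 4.47e-10). Myl9, the regulatory light chain that the kinase phosphorylates (chromosome 2, 156775420 to 156781658), was at 14.4 and 15.5 CPM and at 34.8 and 35.5 CPM (1.24, SE 0.10045, adjusted p = 3.00e-17). Mylk, the light chain kinase itself (chromosome 16, 34745210 to 35002420), was at 13.1 and 14.3 CPM and at 25.0 and 27.1 CPM (0.94, SE 0.111, adjusted p = 3.44e-11). For all 3 genes the groups did not overlap, and the gap between them was wider than that between A and B.

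The nonmuscle heavy chains were more abundant than Myh11 and had smaller fold changes. Myh9, the main nonmuscle heavy chain, rose from 930 ± 20.4 to 1274 ± 42.9 CPM (log2 fold change 0.45), Myh10 from 85.3 ± 6.28 to 150 ± 4.26 CPM (0.80) and Myh14 from 199 ± 14.8 to 240 ± 0.964 CPM (0.27, not called once a length trend was taken out). Myh11 made up 0.565 ± 0.102% of the summed heavy chain RPKM in the unirradiated and 1.08 ± 0.00900% in the irradiated libraries. Among regulatory light chains, the share of Myl9 went from 15.8 ± 0.728% to 30.2 ± 0.788% of the summed RPKM of Myl9, Myl12a and Myl12b. Of the 9 myosin II chains listed, 5 were higher, among them Myh11 and Myl9, and 2 were lower. The shares over all tested genes were 33.9% and 32.5%, or 12.7% and 11.0% against a 1.5-fold change. The lower ones were Myl6, an essential light chain (-0.15, singled out after its values were seen), and Myl12b (-0.62). The count of lower chains was 1 without unirradiated A, with DESeq2 or with no filter, and 0 without irradiated A or against a 1.5-fold change.

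**Figure D2:**
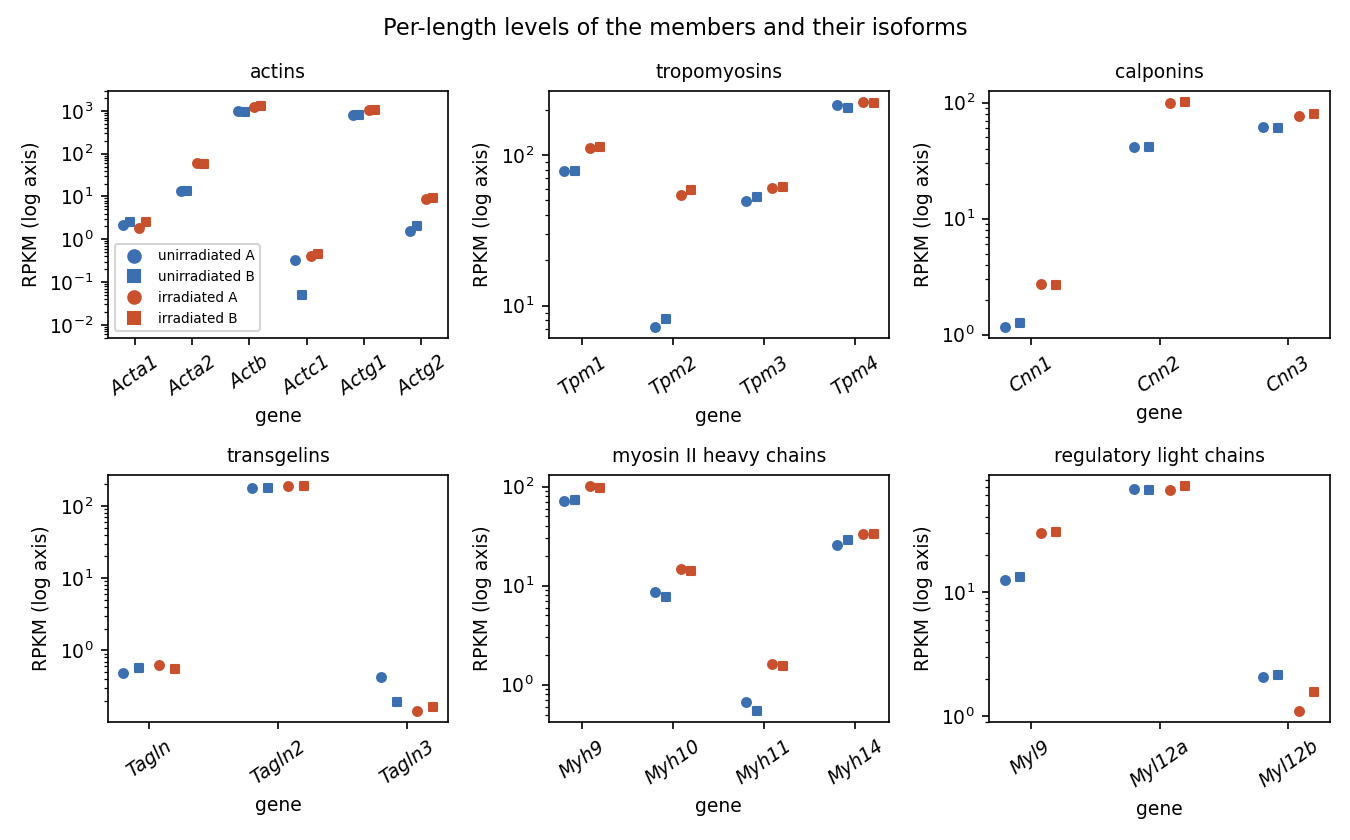
RPKM (log axis) of the contractile genes and their isoforms in 6 families, with circles for library A, squares for B, blue for unirradiated and red for irradiated. Tpm2 moved from 7.73 to 56.6 RPKM and approached Tpm3, while Acta2, at 59.0 RPKM in the irradiated libraries, stayed far below Actb and Actg1.

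Apart from Tpm1 and Tpm2, which rose, proteins bound to the thin filament split into 1 gene that rose and 2 that did not pass. Cnn1, encoding smooth muscle calponin, an inhibitor of the myosin motor (chromosome 9, 22099216 to 22109630), was at 3.22 and 3.48 CPM in the unirradiated and 7.52 and 7.30 CPM in the irradiated libraries. It rose 2.22-fold (log2 fold change 1.15, SE 0.212, adjusted p = 3.28e-06). Cnn2, a calponin of nonmuscle cells, rose by a similar factor at a far higher level, from 102 ± 0.650 to 247 ± 3.97 CPM (1.27, SE 0.0505), and Cnn3 rose from 186 ± 2.09 to 237 ± 4.89 CPM (0.36). Per length, Cnn1 was 1.18 ± 0.0681% of calponin RPKM in the unirradiated and 1.49 ± 0.0567% in the irradiated libraries.

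Cald1, encoding caldesmon, which binds actin and restrains the motor (chromosome 6, 34598500 to 34775473), was at 429.9 and 452 CPM in the unirradiated and 457 and 455 CPM in the irradiated libraries. Both irradiated values were above both unirradiated ones, but unirradiated B lay closer to the irradiated libraries than to unirradiated A. The log2 fold change was 0.05 with a 95% interval from -0.03 to 0.13 and an adjusted p of 0.296 (edgeR). Its direction depended on the setting. Once a length trend was taken out the log2 fold change was -0.21 and passed the test, and with no filter on low counts it was 0.11 and passed as higher (adjusted p between 1.00e-06 and 1 over 13 alternatives). At 12041 bases in the files Cald1 is the longest of the 10 genes, and its 10 protein-coding transcripts include muscle and nonmuscle forms that a gene count does not separate.

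Tagln, encoding transgelin (SM22 alpha), an actin-bundling calponin relative and a widely used smooth muscle marker (chromosome 9, 45929619 to 45936058), had the lowest level of the 10 genes. It held 16 and 14 counts in the unirradiated and 21 and 27 counts in the irradiated libraries, or 0.954 and 1.13 CPM and 1.26 and 1.09 CPM. The groups overlapped, and the log2 fold change of 0.17 had a 95% interval from -0.67 to 1.00 (SE 0.426, adjusted p = 0.738 by edgeR). With at most 27 counts in a library, that interval spans a fall (down to -0.67 in log2), no change and a rise of up to 2-fold. Per length, Acta2 was 26.3 ± 3.10 times Tagln in the unirradiated and 100.2 ± 6.93 times Tagln in the irradiated libraries. Tagln2, a transgelin of nonmuscle cells, was at 371 ± 2.51 and 388 ± 2.49 CPM (0.06, adjusted p = 0.169), and it was called higher with no filter (0.13) or without the length trend (0.29).

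The Tagln value carries a limit of annotation. In GENCODE M21, whose coordinates for Tagln equal those of the files, 1349 of its 1988 exon bases (67.9%) are shared with genes on the opposite strand, 1241 with Gm48529 and 108 with Pcsk7. The library kit does not mark strand, and how the authors' counting treated reads in shared bases is not given in the sources used here. Spread over the 639 unshared bases alone, the Tagln counts would come to 1.63 ± 0.197 and 1.84 ± 0.192 CPM per kilobase, beside the 13.7 and 59.0 RPKM of Acta2. This figure does not allow for reads that only partly touch shared bases, and the ratios of Acta2 to Tagln carry the same limit. The part of the shared bases in the low count was not tested. Of the other genes, 8 shared no exon base with another gene, and Mylk shared 6.85% of its exon bases with genes that held 4 counts or fewer in every library. Of the stretches of 50 bases in the transcripts of Acta2 and Actg2, 0.326% and 0% occurred in a transcript of another gene.

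**Figure D3:**
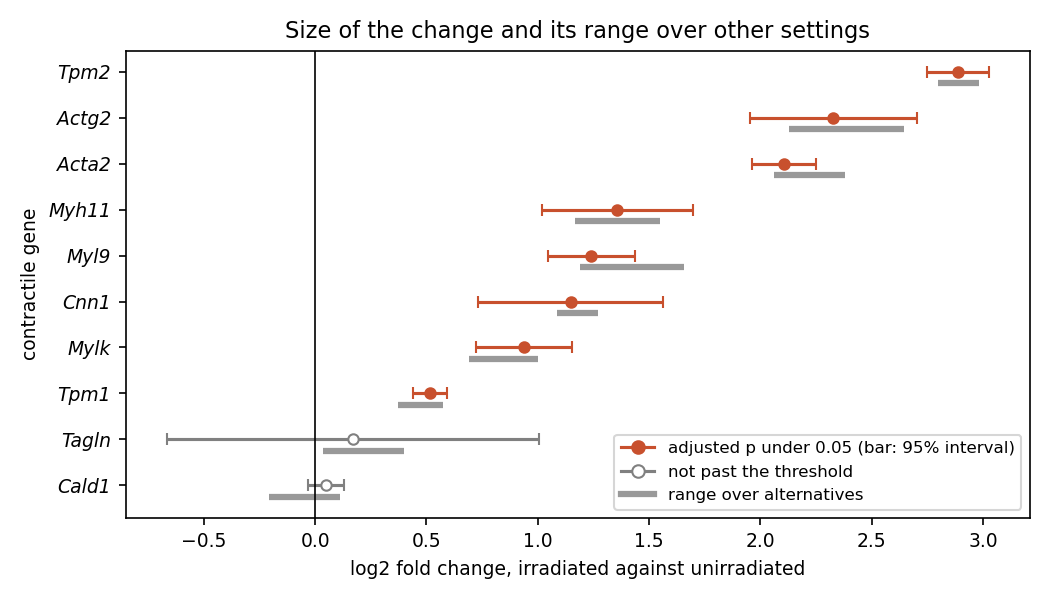
Log2 fold change of each contractile gene with its 95% interval (red where the adjusted p is under 0.05, open grey otherwise), and beneath each a grey bar with its range over 13 alternative settings. The 8 higher genes stay above 0.37 in every setting, and the bar of Cald1, from -0.21 to 0.11, crosses 0.

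Ordered by RPKM, the unirradiated libraries ran Tpm1 (78.7 ± 0.0590), Cald1 (36.6 ± 1.32), Acta2 (13.7 ± 0.0374), Myl9 (12.9 ± 0.619), Tpm2 (7.73 ± 0.634), Actg2 (1.80 ± 0.322), Cnn1 (1.22 ± 0.0666), Mylk (1.22 ± 0.0751), Myh11 (0.609 ± 0.0934) and Tagln (0.525 ± 0.0634). Cnn1 and Mylk overlapped there, as did Myh11 and Tagln. In the irradiated libraries Acta2 (59.0 ± 2.08) and Tpm2 (56.6 ± 3.46), which overlapped, stood above Cald1 (37.9 ± 0.0856), while Tpm1 (112 ± 0.259) remained first and Tagln (0.592 ± 0.0617) last. Tpm1 and Cald1 together gave 91.7% and 91.5% of the summed CPM of the 10 genes without irradiation, and 76.7% and 76.2% with it. The other 8 genes summed to 84.8 and 89.9 CPM in the unirradiated and 360 and 371 CPM in the irradiated libraries.

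The pattern of Acta2 was compared with the 7923 tested genes whose mean reached 20 CPM, by the root mean square distance of log2 CPM after each gene was centred on its own mean over the 4 libraries. The nearest were Adamts1 (0.0241), Hip1 (0.0268), Col11a1 (0.0277), Nid1 (0.0287) and Lipa (0.0340). Adamts1, a secreted metalloproteinase, was at 112 and 109 CPM in the unirradiated and 496 and 479 CPM in the irradiated libraries. Within the contractile set the nearest to Acta2 was Actg2, at 0.166, with 74 of the ranked genes closer. With 4 libraries in 2 groups this likeness is close to having a fold change of similar size.

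Genes that anchor actin to membranes and adhesions mostly rose as well. Of 35 in the list, 25 were higher, 4 lower and 6 did not pass, with a median log2 fold change of 0.52. By the same rule 33.9% of all tested genes were higher and 32.5% lower. Pdlim3, a PDZ and LIM protein of actin bundles, was at 6.502 and 6.72 CPM in the unirradiated and 48.0 and 47.5 CPM in the irradiated libraries (log2 fold change 2.85, SE 0.113). Fhl1, a LIM-domain protein, rose from 1.48 ± 0.316 to 10.2 ± 1.06 CPM (2.80, SE 0.245), Synm, the intermediate filament protein synemin, from 2.49 ± 0.438 to 14.7 ± 2.64 CPM (2.504, SE 0.2005), and Palld, the actin-bundling protein palladin, from 55.9 ± 0.334 to 192 ± 7.79 CPM (1.78, SE 0.0576). The lower genes, singled out after their values were seen, were Pdlim1 (-0.99), Smtnl2 (-0.62), Csrp2 (-0.27) and Cfl1 (-0.09). Without unirradiated A, without irradiated A or with no filter, 2 were lower. Against a 1.5-fold change, 10 of the 35 were higher and 1 lower, beside 12.7% and 11.0% of all tested genes.

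The enzymes that set light chain phosphorylation moved both ways. Of 20 tested genes in this list 7 were higher, Mylk and Mylk2 included, 8 lower and 5 did not pass, and the median log2 fold change was -0.08. Over all tested genes 33.9% were higher and 32.5% lower, so this split is close to that of genes at large. Arhgef1, a guanine nucleotide exchange factor, fell from 306 ± 13.5 to 205 ± 1.61 CPM (-0.58) but did not pass against a 1.5-fold change. By that test 2 of the list's genes were higher, Mylk and Mylk2, and 0 lower, against 12.7% and 11.0% of all tested genes. Mylk2 held 2 counts in each unirradiated library and passed the filter on low counts only through the irradiated ones, so its call is no support for a change of the list.

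Regulators of the smooth muscle programme moved in both directions too. Of 11 tested genes of the SRF and myocardin list 5 were higher and 2 lower, and the median was 0.14. The shares over all tested genes were 33.9% higher and 32.5% lower, or 12.7% and 11.0% against a 1.5-fold change. Srf was at 108 and 112 CPM in the unirradiated and 196 and 195 CPM in the irradiated libraries (log2 fold change 0.83, SE 0.0513, adjusted p = 1.57e-22). Mef2c and Elk1, transcription factors that act beside SRF, were higher too, Mef2c at 4.57 ± 0.626 and 8.13 ± 0.947 CPM (0.83) and Elk1 at 14.5 ± 1.79 and 22.02 ± 1.35 CPM (0.61). Klf4, known as a repressor of smooth muscle genes in vessels, fell from 644 and 651 CPM to 220.3 and 226 CPM (-1.54, SE 0.0423, adjusted p = 3.34e-41). Myocd, the cardiac and smooth muscle cofactor of SRF, stayed below 1 CPM in every library and was not tested. It held 8 and 7 counts in the unirradiated and 2 and 2 counts in the irradiated libraries. Of its widely expressed relatives, Mkl1 did not pass (0.08) and Mkl2 was lower (-0.17), both singled out after their values were seen. The count of lower regulators was 1 without unirradiated A, unirradiated B or irradiated B, with DESeq2 and against a 1.5-fold change.

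TGF-beta, a main inducer of myofibroblasts, gave a divided list of 8 higher and 7 lower of 16 genes, with a median of 0.16. Genes at large were divided too, with 33.9% of all tested genes higher and 32.5% lower, or 12.7% and 11.0% against a 1.5-fold change. Ctgf, a matrix protein and common target of the pathway, rose from 163.7 and 163.9 CPM to 638 and 641 CPM (log2 fold change 1.96, SE 0.0441), and Ltbp1, which holds latent TGF-beta in the matrix, from 80.5 ± 3.95 to 187 ± 14.4 CPM (1.21). Ltbp2 fell from 241 ± 3.94 to 128 ± 8.10 CPM (-0.91). Of genes singled out after their values were seen, the ligand Tgfb1 was at the threshold (0.18, adjusted p = 0.0489 by edgeR), and the ligands Tgfb2 (-0.31) and Tgfb3 (-0.17, not called without unirradiated B) and the inhibitory SMADs Smad7 (-0.55) and Smad6 (-0.60) were lower. Tgfb1 was not called with RLE or upper-quartile scaling, DESeq2, the stricter filter or the length trend taken out, against a 1.5-fold change, or without unirradiated A, unirradiated B or irradiated A, and the list then had 7 higher genes, or 3 against a 1.5-fold change.

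Markers of cell types that use the contractile genes were set beside them. For comparison with the counts that follow, 33.9% of all tested genes were higher and 32.5% lower. Fibroblast markers were 9 higher and 0 lower of 11 tested, with a median of 1.49, and S100a4 was at 0 in some libraries. Pericyte and vascular smooth muscle markers, chosen without the 10 genes, were 6 higher and 0 lower of 13 tested with a median of 0.29, and summed to between 249 and 264 CPM in the unirradiated and between 365 and 368 CPM in the irradiated libraries. The 6 higher were Notch3 (0.86), a receptor of mural cells, Rgs5 (0.64), a pericyte regulator of G proteins, Heyl (1.29), Itga8 (0.59), Cspg4 (0.54, not called without unirradiated A, unirradiated B or irradiated A) and Mcam (0.29). The list also held Des, the intermediate filament desmin, at 2.61 ± 0.0253 and 2.76 ± 0.0871 CPM, and Lmod1, smooth muscle leiomodin, at 4.745 ± 0.383 and 3.76 ± 0.899 CPM, neither of which passed (log2 fold changes 0.08 and -0.28). Kcnj8 (-0.17), Abcc9 (0.18), Higd1b (-0.45) and Rgs4 (-0.25) did not pass either. Vtn was at 0 in 1 library and did not pass (0.90), and Myocd and Sncg stayed below 1 CPM in all 4. Myoepithelial and basal markers were 3 higher and 4 lower of 10, with a median of -0.17, and summed to between 1226 and 1274 CPM and between 851 and 870 CPM. Within them Krt5, a basal keratin, fell (-1.48), Oxtr, the oxytocin receptor, rose (0.98) and the basal factor Trp63 did not pass (0.07). These markers were named with their values already known. Endothelial markers were 7 higher and 0 lower of 8, with sums between 61.4 and 64.2 CPM and between 152 and 163 CPM, and macrophage markers 8 higher and 0 lower of 8, with sums between 246 and 247 CPM and between 669 and 673 CPM. The part of any of these cell types in the contractile genes' change was not tested.

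Ratios within a library show how Acta2 moved beside these markers. Acta2 stood at 4.48 and 4.25 times the CPM of Pdgfra in the unirradiated and 4.70 and 4.17 times in the irradiated libraries, so that the groups overlapped. Pdgfra was the only single marker used, and its log2 fold change of 2.10 lies close to the 2.11 of Acta2. Those of the tested fibroblast markers ran from 0.03 (Thy1, not called) to 4.49 (Pdpn), so such a ratio depends on the marker chosen. Relative to the summed fibroblast markers, Acta2 went from 0.0382 ± 0.00179 to 0.0532 ± 0.00247. Relative to the pericyte and smooth muscle sum it went from 0.0952 ± 0.00423 to 0.287 ± 0.00849, and relative to the myoepithelial and basal sum from 0.0195 ± 0.000485 to 0.122 ± 0.00627. Within the basal sum Lgals7 alone went from 411 to 90.8 CPM, so the last ratio depends partly on this gene.

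**Figure D4:**
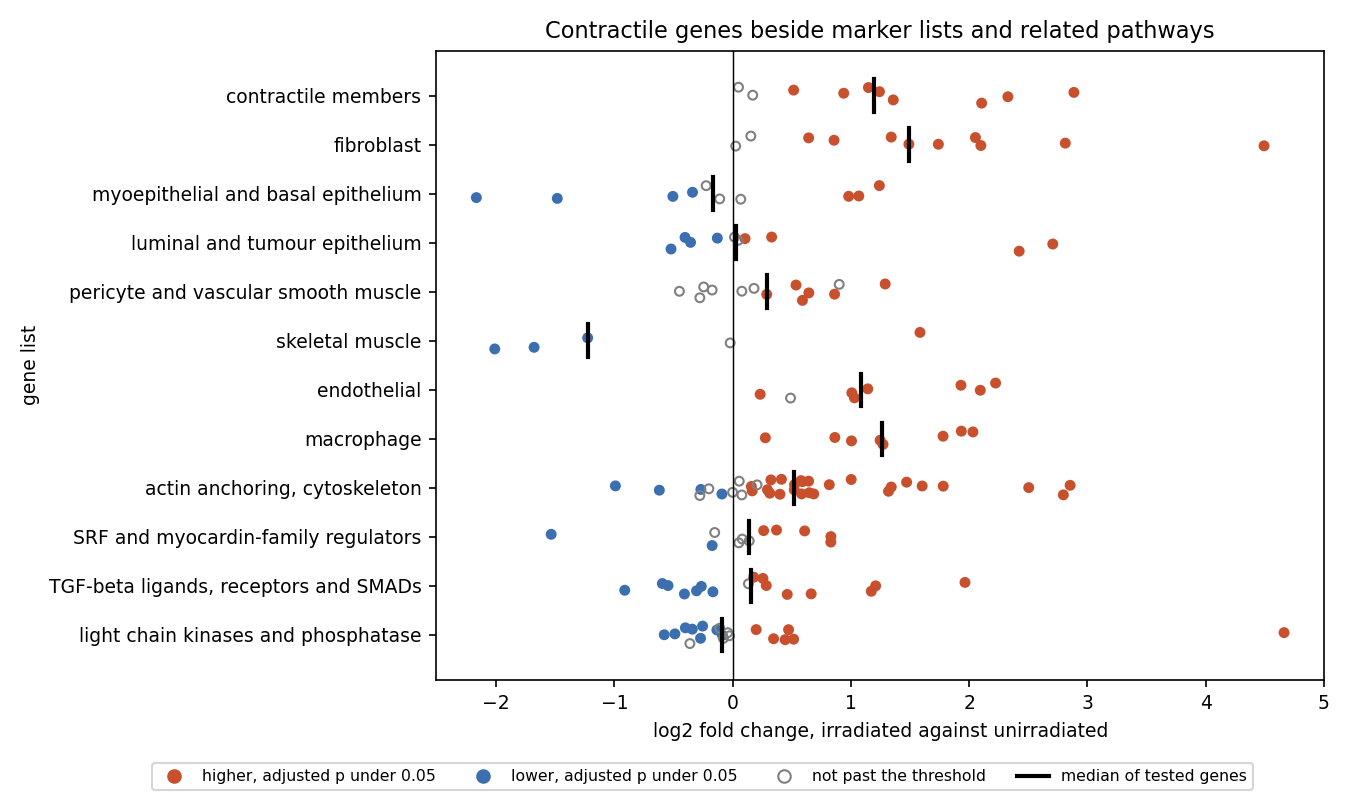
Log2 fold change of each tested gene (points, red higher and blue lower at an adjusted p under 0.05, open grey otherwise; vertical jitter has no meaning) in the contractile set, marker lists of cell types and related pathways, with black bars at medians and the contractile genes left out of the other rows. The contractile median of 1.20 lies beside those of fibroblast (1.49), macrophage (1.26) and endothelial (1.09) markers and above that of pericyte and smooth muscle markers (0.29).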

How the data were processed

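RNA sequencing libraries were made from poly(A)-selected RNA by a non-directional kit, which keeps no strand, per the labels' protocols. Each deposited file gives raw counts per gene for 1 library, as the authors made them, beside a gene length in bases. The tools named in the submitters' processing notes are STAR 2.5, DESeq2 and HTSeq 0.6.1, and the build is mm10. How reads were assigned to genes is not given in the sources used here. Groups were taken from the treatment label.

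Counts were tested with edgeR 4.0.16 in R 4.3.3 (filterByExpr, TMM, quasi-likelihood fit with its current dispersion method, Benjamini-Hochberg adjustment over 15961 genes, threshold 0.05), with all 4 libraries and no covariate. The SE was derived from the log2 fold change and its F statistic, and 95% intervals are normal ones from that SE. RPKM is the scaled CPM per kilobase of the files' gene length, which for 9 of the 10 genes equals the merged exons of GENCODE M21 (Acta2, 1781 bases, differs). Functions were tested on simulated counts. Over genes, A and B of a group differed by a median chi-square of 2.06 (unirradiated) and 2.14 (irradiated) times that of counting alone, against 30.2 between groups, so each library was kept as a replicate.

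The 10 genes and all lists were chosen with earlier results of these data known, so no count over a list is independent evidence. Named beyond the 10 are up to 4 called genes per related list with the largest change and a mean of at least 1 CPM, their isoforms, and the 5 genes nearest to Acta2; others are marked as singled out, and a few that the rule names are not reported here. The length trend was removed through a smooth per-library trend of log2 CPM on log2 length. Alternatives also included RLE and upper-quartile scaling, DESeq2 1.42.0, no filter, a stricter filter (1 CPM in 2 libraries), a replicate block, each library left out, a test against 1.5-fold and, added after seeing the data, edgeR's legacy dispersion and the CArG-like box.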

Additional observations from a re-analysis of the deposited data

How the results depend on the processing

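Over 13 alternatives, between 7 and 9 of the 10 contractile genes were higher, and 0 were lower except after removal of the length trend, where Cald1 (-0.21) made it 1. The median log2 fold change of 1.20 was 1.15 with upper-quartile scaling, 1.26 with no filter and between 1.14 and 1.22 with each library left out. With no filter Cald1 was called higher (0.11), and against 1.5-fold Tpm1 was not called. For the other 8 genes no alternative changed a direction or a call. Acta1, which was not called, turned from -0.02 to 0.0418 with no filter and to 0.30 after removal of the length trend, and lay between -0.296 and 0.16 with each library left out. Among the other named genes 13 lost their call against 1.5-fold and 2 with DESeq2. Over all genes 5409 were higher and 5184 lower, against 2032 and 1754 when tested against 1.5-fold. Libraries sharing a letter did not deviate together (correlation -0.00435 over 11235 genes), and the replicate block, with 8 contractile genes higher and a median of 1.19, changed no call of a named gene. Where a group kept 1 library, it was taken to be as variable as the other group's libraries. Depth limits Tagln, with 27 counts or fewer per library.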

Other observations

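Mylk2, the light chain kinase of skeletal muscle, held 2 counts in each unirradiated library and 73 and 78 counts in irradiated A and B, which is 0.119 and 0.162 CPM against 4.39 and 3.15 CPM. It passed the filter on low counts only through the irradiated libraries, so these values are given without a test. Of 5 skeletal muscle markers tested, 3 were lower and 1 higher, and the list summed to between 22.6 and 24.4 CPM in the unirradiated and between 9.98 and 12.02 CPM in the irradiated libraries. The lower ones were Ckm, Mb and Mylpf and the higher one was Tnni2, singled out after their values were seen, and the count of higher genes was 0 with DESeq2, with the stricter filter, without unirradiated A and without irradiated B. Tnni2 held 2 and 7 counts in the unirradiated and 11 and 28 in the irradiated libraries, and passed the filter on low counts only through the irradiated ones. Ckm held 16 and 13 counts against 3 and 7, and passed it only through the unirradiated ones. Their calls are therefore no support for a change of the list. Over all tested genes 33.9% were higher and 32.5% lower. Tnnt3, Tnnc2, Myh1, Myh4 and Pvalb were below 1 CPM in every library.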
